A study of Homo sapiens with 13 samples.

Results

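SRSF2 binding windows that the authors assigned to transcripts of the class processed_transcript were examined for their change between wild-type (WT) and P95H SRSF2. The members are the positions of the authors' table of differential binding whose first entry carries that class, each position counted once, which gave 439 of 8100 windows. A further 25 positions carried the class on a later entry only and were not members. The windows lay in 190 host genes on 23 chromosomes, and 437 of 439 lay inside their host gene on its strand. Merging overlapping or adjacent windows of the same strand and direction left 240 regions, of which 171 held a single window and the longest spanned 86 nucleotides.

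Binding was measured in HEL cells, a human erythroleukemia line, by HITS-CLIP: ultraviolet light links RNA to protein, the protein is pulled down, and the short RNA fragments that come with it are sequenced. The cells stably expressed either WT SRSF2 or SRSF2 with the P95H substitution, both pulled down through a Flag tag, in 4 samples each that had received 1 µg/ml doxycycline for 36 hours. RNA-seq of rRNA-depleted RNA covered 2 WT samples, 2 P95H samples (both with 48 hours of doxycycline) and 1 P95H sample labelled uninduced, so that the series has 13 samples. The endogenous SRSF2 gene of the line is not described as altered, so the labels allow endogenous SRSF2 in every group, and the sources used here do not say whether a line was 1 clone. Every binding value below (mean CPM, which is a read count scaled to a common library total, its standard error, log2 change of P95H over WT, adjusted p) is the authors' own, from their deposited table, which holds means over samples and no value for a single sample. That table lists only windows whose adjusted p did not exceed 0.05 and whose change reached 2-fold, so membership in it is no finding, and windows that did not change are not part of the comparison.

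SRSF2 is an SR protein, a splicing factor with 1 RNA recognition motif and a tail rich in arginine and serine, and it binds short exonic motifs that promote inclusion of the exon. Proline 95 lies just beyond the RNA recognition motif, and its substitution, recurrent in myelodysplastic syndromes, is known to shift the preference between the motifs CCNG and GGNG. The class processed_transcript is an Ensembl label for a spliced or unspliced transcript with no annotated open reading frame, either of a protein-coding gene, of a transcribed pseudogene or of a noncoding gene. A window assigned to it can also lie in exons that the coding transcripts of the gene share, so the class names the authors' assignment and not the RNA molecule that was bound.

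Sequences could be read for 16 member windows, those that lie wholly inside RefSeq promoter entries (GRCh38.p14, 250 bases before to 50 after a start site). They are shown because the 2 motifs can be read in them directly. Each is printed 5′ to 3′ on the strand of the transcript, with DNA letters. Capitals mark every GGNG or CCNG, where N is any base, searched on the transcript's strand only, and matches of the motifs may overlap. The authors' files do not say whether starts count from 0 or 1, and positions were read as counting from 1. Of the 16, 9 are shown: 1 window of each gene, and both windows of ATP6V1G2, which had the largest rises.

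ST7L, chr1:112619232-112619252, minus strand: gaaatcttctcggtCCCGGtt
UPF3A, chr13:114291641-114291661, plus strand: gagaagagaagcgagaagaac
NGRN, chr15:90265836-90265856, plus strand: gactgGGAGCCGGAGgaacgg
RP11-111F5.5, chr9:62376332-62376352, plus strand: atgGGTGgattcgggtCCAGa
MEF2C, chr5:88823886-88823906, minus strand: aactgagctgtgcaagtgctg
UBB, chr17:16381150-16381170, plus strand: ttGGTGattggcaggatCCTG
TMEM161B, chr5:88268968-88268988, minus strand: gcaccgcccCCAGcccacaac
ATP6V1G2, chr6:31546632-31546652, minus strand: caacgagctGGAGGAGGAGaa
ATP6V1G2, chr6:31546653-31546673, minus strand: aGGGGtagtGGAGgactgcag

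Per the authors' deposited values, the first 5 of these windows were lower in P95H and the last 4 higher. The ST7L window, with CCNG only, had 2.47 ± 2.11 CPM (mean ± SE, n = 4) in WT and 0.10 ± 0.08 in P95H, a log2 change of -4.23. Both ATP6V1G2 windows, with GGNG only, had the largest rises of the set, from 0.21 ± 0.16 to 2.93 ± 2.70 CPM (log2 change 3.91) and from 0.07 ± 0.04 to 2.65 ± 2.54 CPM (log2 change 4.77). The standard errors of these windows are nearly as large as the means of the protein with more signal. The UPF3A window, without either motif, fell from 6.53 ± 4.45 to 0.58 ± 0.39 CPM, and the MEF2C window, also without either, from 3.04 ± 0.96 to 0.58 ± 0.52 CPM. UBB, with both motifs, and TMEM161B, with CCNG only, rose by 2.15 and 1.41 on the log2 scale. UPF3A is a factor of nonsense-mediated decay, MEF2C a transcription factor, UBB a polyubiquitin gene and ATP6V1G2 a subunit of the vacuolar proton pump.

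Among the 16 windows, GGNG was present in 6 (37.5%, exact 95% interval 15.2 to 64.6) and CCNG in 8 (exact 95% interval 24.7 to 75.3%). GGNG stood in 3 of the 12 lower windows and in 3 of the 4 higher ones, and CCNG in 6 of 12 and 2 of 4. For scale, of all 157 windows of the table with a readable sequence, 51.6% held GGNG and 35.0% CCNG. There CCNG was present in 42.5% of 106 lower and 19.6% of 51 higher windows, and GGNG in 51.9% and 51.0%. The last 21 bases of 35116 promoter entries held GGNG in 40.4% and CCNG in 39.2%. Some of these member windows overlap one another, within ST7L, UPF3A, MEF2C and RP11-111F5.5, so they are fewer than 16 separate sites, and the intervals, which treat them as separate and cover counting only, are too narrow. The 157 windows include these members, so they are not all separate sites either. The difference in shares between lower and higher windows was not tested.

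Most member windows were lower with the mutant protein. Of 439, 349 (79.5%) were lower in P95H and 90 (20.5%) higher, against 77.7% lower and 22.3% higher over all 8100 windows of the authors' deposited table, so the split is near the background. Windows assigned to retained introns were higher in 26.5% of 667, those of transcripts marked for nonsense-mediated decay in 28.0% of 321 and those of protein-coding transcripts in 19.3% of 5081. The median log2 change of the members was -1.61, beside -1.62 in the whole table. Lower members had a median of -1.95 and higher members of 1.90, and 47.4% of members changed by over 4-fold, against 48.6% of the table. By merged regions the split was 171 lower and 69 higher, beside 2449 lower and 1264 higher of 3713 regions in the whole table.

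Of 141 members with at least 10 CPM in the protein with more signal, 132 were lower in P95H and 9 higher. The whole table had much the same split at that level, with 2146 of 2305 windows lower and 159 higher. WT means ran from 0 to 123.34 CPM and P95H means from 0 to 56.23 CPM. In 4 members WT was listed at 0 and in 10 members P95H was. Lower members reached their highest level in the pseudogene PTMAP5, and higher members reached at most 12.78 CPM, in SND1. The plot of WT against P95H means shows a dense group of lower windows above 10 CPM in WT and a thinner group of higher windows that seldom passes 10 CPM in P95H.

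**Figure D1:**
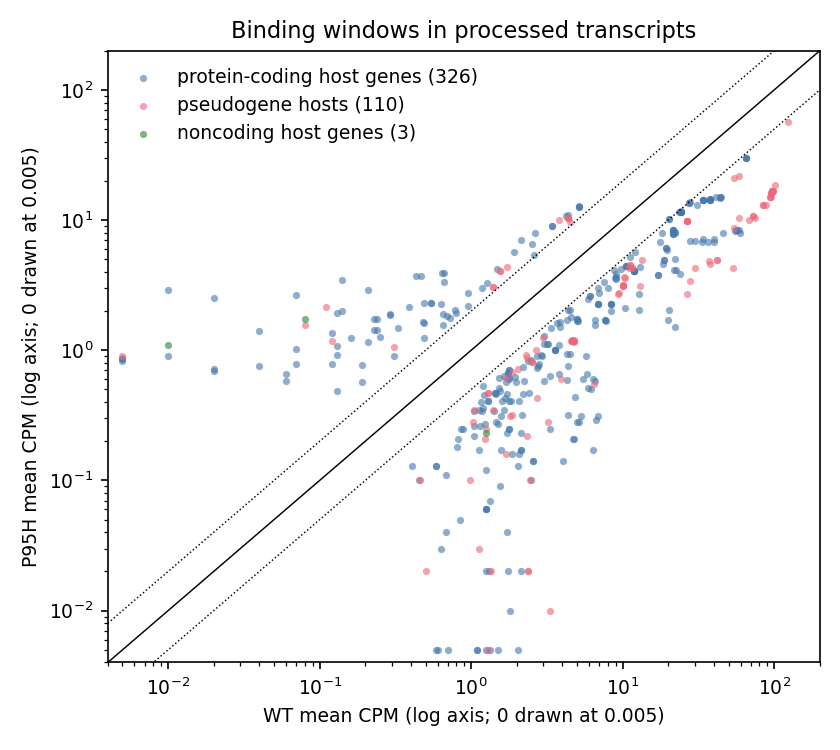
Mean CPM in WT (x axis) and P95H (y axis) of the 439 windows, both on log axes, coloured by the class of the host gene. The solid line marks equal means, with 349 windows below it and 90 above, and the dotted lines mark a 2-fold difference of the means; 2 APLP2 windows at 20.37 and 10.24 CPM lie just inside them, with a deposited log2 change of -1.03.

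The spread between samples was large for most of these windows. Mean ± 1 SE of the 2 proteins overlapped in 313 of 439 members (71.3%, against 69.2% of all windows). By direction the overlap was found in 73.6% of the lower and 62.2% of the higher members, against 72.1% and 59.1% in the whole table. Each of these windows nevertheless had an adjusted p of at most 0.05 in the authors' deposited table. Among the 141 members with at least 10 CPM the overlap was 84.4%, with 83.3% of the lower windows and all 9 higher ones. Only 74 of these 141 windows lie outside PTMAP5, HMGB1P5 and ANP32A, so this share rests largely on overlapping windows of few genes. The share over all windows at that level was not computed. A mean and a standard error over 4 non-negative values set a lower limit on the share of the summed CPM that 1 sample holds, provided that the authors' error is over the 4 samples. That least share, in the protein with more signal, had a median of 67.0% in the members and 65.7% in the table. It reached at least 50% in 340 members (77.4%, against 80.1% of all windows) and at least 90% in 56 (12.8%, against 14.6%). Which sample carries the signal cannot be told from means.

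**Figure D2:**
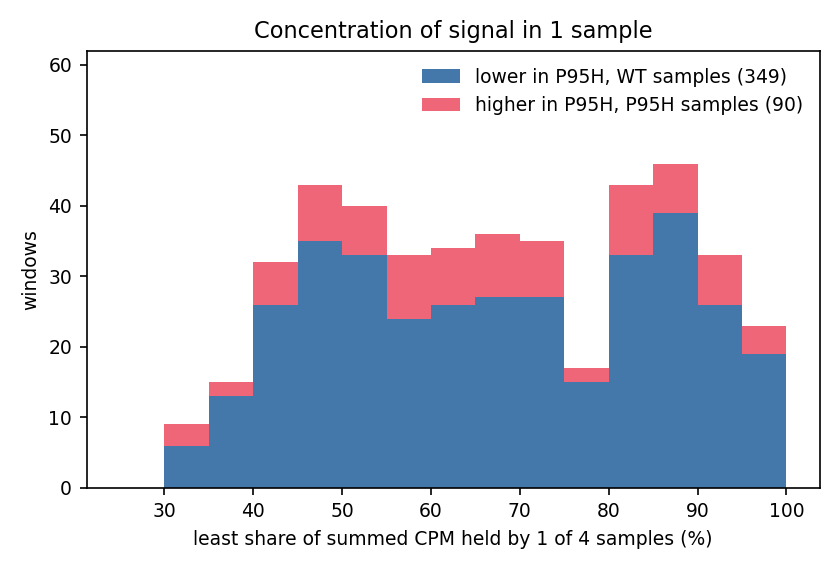
Number of windows (y axis) by the least share of summed CPM that 1 of the 4 samples of the protein with more signal must hold (x axis, in percent, bins of 5), for windows lower (blue) and higher (red, stacked on top) in P95H. Values run from 32.5% to 99.4%, and 340 of 439 windows lie at 50% or more.

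Host genes were of 3 kinds. Protein-coding genes numbered 156 and held 326 windows, with 22.4% higher in P95H. Pseudogenes numbered 31 and held 110 windows. Of these, transcribed processed pseudogenes, which are copies made from a spliced RNA, held 63 windows in 10 genes with 2 higher (3.17%). Transcribed unprocessed pseudogenes, which are duplicated genes, held 46 windows in 20 genes with 13 higher (28.3%), and a further pseudogene held 1 window. Of these 13 higher windows, the duplicated copies HERC2P3 and HERC2P9 held 7 and 2. By merged regions the 2 kinds were closer, with 2 of 19 regions higher in the former and 7 of 30 in the latter. Windows of the 2 pseudogene kinds also differed in level, with a median of 37.38 CPM in the protein with more signal in the former and 2.61 in the latter. The former median is set by PTMAP5 and HMGB1P5, since no member window of the other genes of that kind passed 26.80 CPM in either protein. Noncoding genes numbered 3 with 1 window each. PDXDC2P and a second gene, on chromosome 1, were higher (log2 change 5.36 and 4.73, both below 2 CPM in P95H) and RP11-78J21.7 was lower (log2 change -1.96).

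Windows were concentrated in few genes. ANP32A held 37, PTMAP5 21 and HMGB1P5 17, together 75 of the 439, while 111 genes held 1 window each. Without these 3 genes 275 members were lower and 89 higher (24.5%), and the median log2 change was -1.52. In the transcribed processed pseudogenes, 38 of the 63 windows come from PTMAP5 and HMGB1P5.

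ANP32A and ANP32B encode acidic nuclear proteins that bind histones and take part in mRNA export, and SET encodes an inhibitor of protein phosphatase 2A. All 37 ANP32A windows were lower in P95H per the authors' deposited values, in 4 regions near the 3′ end of the gene on chromosome 15, minus strand. The strongest (chr15:68782990-68783010) fell from 59.15 ± 54.52 to 7.98 ± 5.79 CPM, a log2 change of -2.95 with an adjusted p of 4.19e-09. In the region at chr15:68780404-68780469 the strongest window fell from 44.26 ± 23.72 to 15.12 ± 3.49 CPM (log2 change -1.56), and within its 66 bases single windows ranged from -3.78 to -1.26. The region closest to the 3′ end had 37.89 ± 16.72 against 14.48 ± 6.51 CPM (log2 change -1.40). The first of these rests on 1 WT sample for at least 88.7% of its WT signal. In the strongest window of the region at chr15:68780404-68780469 the intervals of mean ± SE do not overlap. In that of the region closest to the 3′ end they do not overlap either, by a narrow margin.

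ANP32B had 8 member windows in 1 region of chromosome 9, all lower, the strongest falling from 34.17 ± 25.74 to 7.14 ± 4.4 CPM (log2 change -2.31). The processed pseudogenes of both genes, ANP32AP1 and ANP32BP1, followed with 6 and 8 windows, all lower. ANP32AP1 fell from 26.80 ± 13.71 to 9.80 ± 4.45 CPM in its strongest window, and ANP32BP1 from 4.81 ± 3.34 to 1.15 ± 0.98. SET had 3 windows, all lower, with 23.81 ± 15.97 against 3.83 ± 1.29 CPM in the strongest (log2 change -2.59), where mean ± SE did not overlap. Of the fixed list of 27 chromatin and nucleolar genes, 6 hosted member windows, with 52 lower and 1 higher (in DKC1, the pseudouridine synthase of telomerase and small nucleolar RNPs). The same list held 12 higher of 704 windows in the whole table.

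PTMAP5 and HMGB1P5 are processed pseudogenes of prothymosin alpha, an acidic chromatin protein, and of the architectural DNA-binding protein HMGB1. PTMAP5 (chromosome 13, plus strand) held 4 regions. The strongest member window of all (chr13:81690107-81690127) had 123.34 ± 75.57 CPM in WT and 56.23 ± 29.11 in P95H, a log2 change of -1.14 with an adjusted p of 0.0205. In the second region, 16 windows within 46 bases, the strongest fell from 100.97 ± 96.67 to 18.59 ± 17.17 CPM (log2 change -2.48, adjusted p 4.28e-07). Relative to its mean, the window with the smaller change has the tighter error. Near the second region a single window (chr13:81690317-81690337) was higher, 1.73 ± 0.68 against 4.34 ± 3.47 CPM.

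HMGB1P5 (chromosome 3, plus strand) had 17 windows, all lower, 16 of them in 1 region of 86 bases. Its strongest fell from 84.54 ± 75.92 to 13.12 ± 12.62 CPM (log2 change -2.74, adjusted p 3.21e-08), with at least 85.5% of the WT signal in 1 sample. Levels within the region were highest in its 5′ part and declined towards its 3′ end in both proteins, and log2 changes ranged from -3.75 to -2.54. The parent genes moved in the same direction in the same table. PTMA held 103 windows with 2 higher and a median log2 change of -1.93, HMGB1 38 windows with none higher and a median of -2.74, ANP32A 58 and ANP32B 108 windows with none higher. Reads of such copies resemble those of their parents, and the sources used here do not say how reads with several equal matches were placed, so the share of signal that arose from the pseudogene is uncertain.

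**Figure D3:**
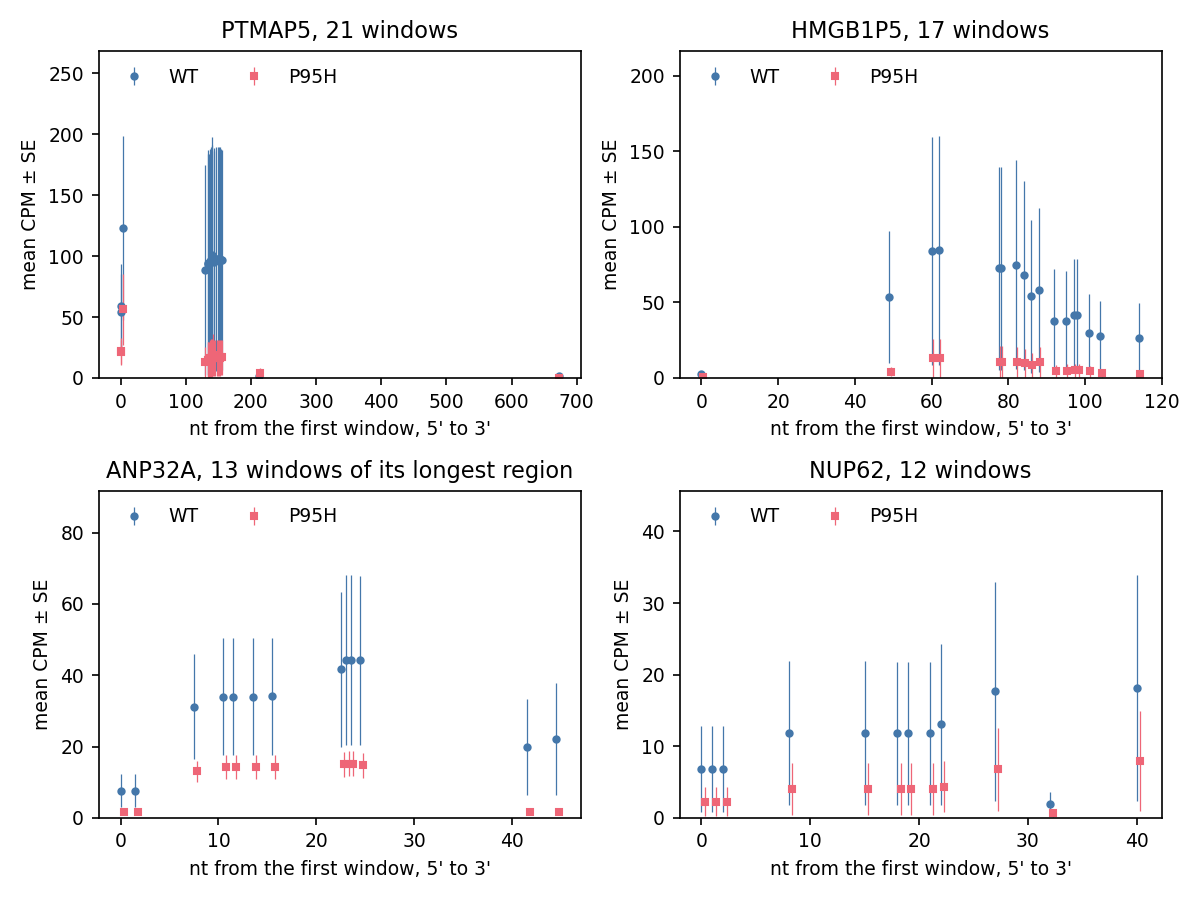
Mean CPM ± SE (y axis, from 0) in WT (blue circles) and P95H (red squares) at each window of PTMAP5, HMGB1P5, the ANP32A region with most windows, and NUP62, by distance in nucleotides from the first window, 5′ to 3′ (x axis). WT lies above P95H at every window drawn except the PTMAP5 window at 4.34 CPM in P95H, and the WT error bars of the 16-window PTMAP5 region and of HMGB1P5 reach close to 0.

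Other windows repeat exactly between near-identical copies. In 18 members (4.1%) all 6 deposited values equal those of a window over 1000 bases away, on the other strand or on another chromosome. Over the whole table the share was 3.58%, so the members are near the background. HERC2, a large ubiquitin ligase, has duplicated pseudogenes on chromosome 15, and 5 windows of HERC2P3 and 4 of HERC2P9 have such a twin. At chr15:20462889-20462909 (HERC2P3) and chr15:28632729-28632749 (HERC2P9), and in a window of HERC2P2, the table lists 1.56 ± 1.02 CPM in WT and 4.08 ± 3.56 in P95H. At chr15:20437362-20437382 and chr15:28657237-28657257, and in a window of HERC2, it lists 2.54 ± 1.45 against 0.82 ± 0.40 CPM, a log2 change of -1.57. A gain and a loss thus both recur between HERC2P3 and HERC2P9. Over its member windows HERC2P3 had 7 of 9 higher, HERC2P9 2 of 8 and HERC2P2 none of 4. Their windows of other transcript classes were mostly higher, in 6 of 6, 11 of 11 and 13 of 15, and the parent HERC2 had 11 of 13 higher over all its windows.

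SMG1P5, a copy of the nonsense-mediated decay kinase SMG1, had 1 window, 0.08 ± 0.03 CPM in WT and 1.56 ± 1.29 in P95H (log2 change 4.00), whose values recur in SMG1 and 6 of its pseudogenes. The PI4KAP1 window, 0 CPM in WT and 0.90 ± 0.85 in P95H, recurs in the lipid kinase gene PI4KA and in PI4KAP2. Of the 3 UPF3A windows 2 recur in UPF3AP1, and 1 window of HNRNPA1P48 recurs in HNRNPA1 and 2 other copies. For such windows the gene of origin cannot be told apart. Leaving out all 18 gave 339 lower and 82 higher members. Windows of copies with nearly equal values were not among the 18. The strongest windows of HERC2P2 and HERC2P9, at 11.24 ± 7.69 and 11.26 ± 7.73 CPM in WT, are an example.

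Member windows in the splicing genes of the fixed lists below were lower in P95H with 1 exception, as were most windows of these lists in the whole table. The lists do not hold every splicing gene. Among hosts outside them, SFPQ and USP39 had higher member windows only, and SNRPA1 had a lower one. Of the list of 43 core spliceosome genes, 3 hosted 7 member windows, all lower (20 of 136 higher in the whole table). SF3A3, a subunit of the U2 snRNP, had the strongest window of a protein-coding host (chr1:37969664-37969685), with 65.66 ± 43.59 CPM in WT and 29.86 ± 15.35 in P95H and a log2 change of -1.14. The helicases DDX23, of the U5 snRNP, and DDX5 fell by 1.28 and 2.35 on the log2 scale in their strongest windows. Of 12 SR protein genes, SRSF10 and SRSF11 hosted 4 windows, all lower (5 of 18 higher in the whole table). SRSF10, a splicing repressor activated by dephosphorylation, fell from 5.75 ± 1.98 to 0.91 ± 0.49 CPM, log2 change -2.54, with mean ± SE well apart and at least 33.9% of WT signal in 1 sample, among the most even windows of the set.

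The list of 38 hnRNPs and other splicing regulators had HNRNPH3 and SRRM2 as hosts, with 10 windows lower and 1 higher (32 of 234 higher in the whole table). HNRNPH3, of an hnRNP family that binds G-rich RNA, had 9 windows in 1 region, all lower, with 24.44 ± 13.91 against 11.79 ± 5.30 CPM in the strongest (log2 change -1.07). SRRM2, a scaffold of nuclear speckles, had 1 window lower (2.74 ± 2.47 against 0.91 ± 0.64 CPM) and 1 higher (0.65 ± 0.58 against 1.56 ± 1.46 CPM), and in both the intervals of mean ± SE met. UPF3A was the single host among 10 nonsense-mediated decay factors, with 3 windows, all lower (8 of 24 higher in the whole table). NUP62, a nucleoporin of the central channel, had 12 windows in 61 bases, all lower, with 18.08 ± 15.77 against 7.90 ± 6.98 CPM in the strongest. ZC3H4, a zinc finger protein that restrains noncoding transcription, had 9 lower windows, with 22.24 ± 15.88 against 8.06 ± 5.56 CPM (log2 change -1.52).

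Ribosomal protein genes hosted member windows in both directions. RPL4, of the large subunit, had 3 overlapping windows, all higher in P95H per the authors' deposited values, the strongest with 4.33 ± 3.95 CPM in WT and 10.93 ± 6.65 in P95H (log2 change 1.27, adjusted p 0.00914). The 3 windows are therefore 1 site, and in the strongest the intervals of mean ± SE overlapped. RPS10 and RPL39 had 1 lower window each, at 1.15 ± 0.76 and 0.82 ± 0.64 CPM in WT against 0.26 ± 0.16 and 0.21 ± 0.12 in P95H. Over the whole table, the list of 79 ribosomal protein genes had 47 of 111 windows higher, with a median log2 change of -1.14.

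Other strong gains were in single windows or regions. SND1, a nuclease-domain coactivator, rose from 5.16 ± 2.65 to 12.78 ± 9.24 CPM (log2 change 1.29), and GNB2L1, the ribosomal scaffold RACK1, from 3.41 ± 1.38 to 8.94 ± 6.32 (1.41). GLUL, glutamine synthetase, rose from 2.65 ± 1.01 to 8.02 ± 3.33 CPM (1.62) and CCNL1, cyclin L1, from 2.54 ± 1.09 to 6.50 ± 2.55 CPM (1.29). In GLUL and CCNL1 the intervals of mean ± SE were apart, and 1 P95H sample held at least 37.9% and 36.5% of the signal. The unit CPM has no length in it, but the windows are of nearly equal width. KANSL1L rose from 1.48 ± 0.74 to 4.20 ± 3.11 CPM, and CYSLTR1, a leukotriene receptor gene, from 2.15 ± 0.98 to 7.06 ± 4.29 CPM.

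The largest changes were at low levels. Among windows with at least 1 CPM in the protein with more signal, CNPY4 fell most, from 2.04 ± 1.63 CPM in WT to a listed 0 in P95H, with a deposited log2 change of -7.68. An overlapping CNPY4 window with the same WT mean had 0.13 ± 0.11 CPM in P95H and a log2 change of only -3.88. SEC11C, TJAP1, CISD3, AC141586.5, EBAG9 and SCAMP3 were also listed at 0 in P95H, with 1.10 to 1.51 CPM in WT, and UBE2Q2P2 fell from 3.30 ± 2.68 to 0.01 ± 0.01 CPM. Against a listed 0 the size of a log2 change depends on the offset the authors used, which is not stated. These values are therefore no measure of fold, and their rank against windows listed above 0 depends on the offset too. Gains among the 8 largest at that level, not described above, were in FAM193B (0.01 ± 0.01 to 2.91 ± 2.89 CPM, log2 change 6.50), FAM219B (0.04 ± 0.04 to 1.41 ± 1.25, 5.66), MACF1, a cytoskeletal linker (0.02 ± 0.02 to 2.54 ± 2.51, 5.56), and TESK2, a kinase (0.14 ± 0.10 to 3.46 ± 3.33, 4.06). In FAM193B, MACF1 and TESK2, 1 P95H sample held at least 98.97%, 98.24% and 94.47% of the P95H signal.

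Both directions occurred in 10 host genes, while 125 had lower windows only and 55 higher windows only. NEDD4, a ubiquitin ligase, had 3 higher and 2 lower windows close together on chromosome 15. At chr15:55987369-55987400 the strongest window rose from 0.25 ± 0.12 to 1.27 ± 0.98 CPM, at chr15:55987442-55987468 it fell from 1.76 ± 1.26 to 0.67 ± 0.33, and at chr15:55987936-55987956 it rose from 0.63 ± 0.41 to 2.27 ± 1.59. In all 3 of these NEDD4 windows the intervals of mean ± SE overlapped. HNRNPA1P48, a processed pseudogene of HNRNPA1, fell from 11.50 ± 3.87 to 4.30 ± 3.30 CPM at chr16:51645936-51645956 and rose from 0.12 ± 0.07 to 1.17 ± 1.05 CPM at chr16:51646440-51646460. GOLGA8A, GLUL, SRRM2 and TTC3 had 1 window in each direction.

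Of the 190 host genes, 114 also had windows that the authors assigned to other transcript classes, 672 in all, of which 247 overlapped a member window and 425 lay apart, in 87 genes. Of the 425 windows lying apart 97 were higher, and 77.7% of the whole table was lower, so a shared negative sign is common to begin with. Agreement within genes was not tested. The median log2 change of the windows lying apart had the same sign as that of the members in 55 of 87 genes. It was negative in 43 of 62 genes whose member windows were all lower and positive in 7 of 17 genes whose member windows were all higher. MYH9, nonmuscle myosin, had 1 higher member window (0.95 ± 0.71 to 2.77 ± 2.75 CPM) and 21 other windows, all lower. FAM193B had 4 of 5 other windows higher. These 2 genes were chosen after their values were seen. Along the host gene the members lay at a median of 57.3% of its length from the 5′ end (63.1% over all windows). Of the members 12.8% lay in the first 10% of the gene and 19.6% in the last 10%, near the 10.9% and 17.0% of all windows.

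RNA of the host genes was compared to see whether their abundance differed between the lines. The 5 RNA-seq libraries held 37414093 to 45005605 counts, and 182 of the 190 host genes passed the filter on low counts. None of the 182 passed an adjusted p of 0.05 by edgeR's quasi-likelihood test, in which none of 22007 genes passed (0%), with 2 hosts and 227 genes (1.03%) at an unadjusted p under 0.05 and no host by DESeq2. With the replicate number as a block, 84 of 22007 genes passed (0.382%) and again none of the 182 hosts. The labels call these samples biological duplicates and say no more, and with 2 libraries a group a change of modest size could be missed, the median standard error of a host's log2 change being 0.13. The mitochondrial share of counts was 1.38% in both libraries numbered 1 and 4.5% and 4.3% in those numbered 2, so values within each number are given below.

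Host RNA log2 changes ran from -0.59 to 0.86 with a median of 0.00 and an interquartile range from -0.07 to 0.07. Of the 182, 170 changed by less than 0.25 on the log2 scale in either direction, 98 were below 0 and 84 above. In 39 hosts (21.4%) the 2 groups of libraries did not overlap, against 24.5% of all genes tested. The sign agreed between the 2 same-numbered pairs in 99 of 182. For this count, and for those within 0.25, below 0 and above 0, no share over all genes tested is given. Whether the hosts differ from all genes in these counts was not tested. Hosts whose windows were all lower in P95H had a median RNA change of -0.01 (118 genes, 66 below 0), and those whose windows were all higher also near 0, at 0.00 (54 genes, 28 below 0). Across the 182 genes the median binding change and the RNA change had a Spearman correlation of 0.066 and a Pearson correlation of 0.038, given as a description, since windows of a gene share libraries and genes are not independent replicates.

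**Figure D4:**
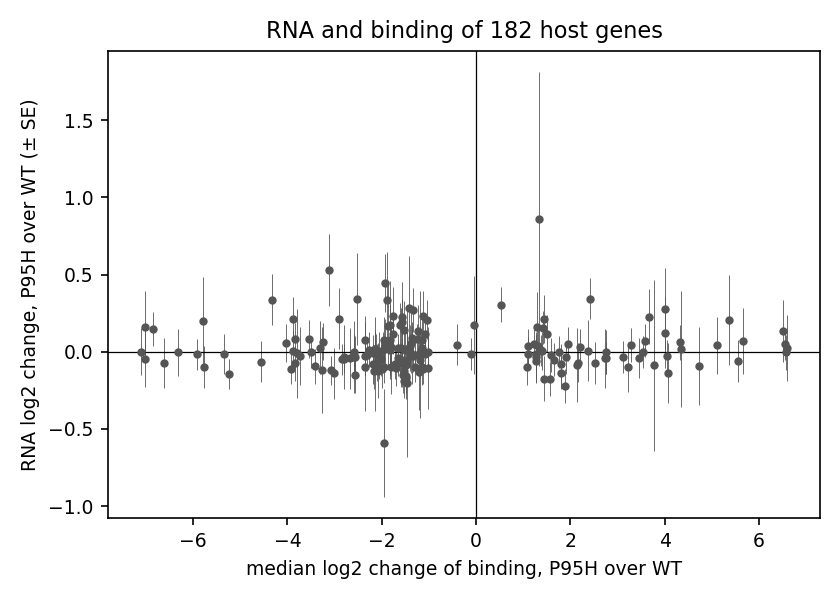
RNA log2 change of P95H over WT by edgeR with its SE (y axis) against the median log2 change of binding over the member windows (x axis) for 182 host genes, 1 point each. RNA changes lie near 0 on both sides of the binding axis; the point at 0.86 is CYSLTR1.

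RNA of the genes with strong binding loss differed little between the induced WT and P95H libraries. ANP32A had 442 and 414 CPM in WT, 429 and 429 in P95H and 379 in the library labelled uninduced. ANP32B had 474 and 422 CPM in WT, 418 and 396 in P95H and 351 in the uninduced library. SF3A3 had 300 and 293 CPM in WT, 298 and 300 in P95H and 269 uninduced. In ANP32A and SF3A3 the libraries of the 2 lines overlap, and in ANP32B the P95H libraries lie just below the WT ones. SET had 851 and 818 CPM in WT, 842 and 809 in P95H and 708 uninduced. The uninduced library was thus the lowest of the 5 in each of these 4 genes. The pseudogenes were far less abundant, PTMAP5 with 5.38 and 4.62 CPM in WT and 4.24 and 5.44 in P95H, and HMGB1P5 with 8.36 and 7.02 against 9.53 and 8.15. Among hosts with binding gain, RPL4 had 2408 and 2040 CPM in WT and 2332 and 1971 in P95H, and SND1 222 and 190 against 207 and 199. In both genes the difference between the WT replicates exceeded the difference between the means of the lines.

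GOLGA8A and GOLGA8B, neighbouring golgin-like genes on chromosome 15, were the 2 hosts at an unadjusted p under 0.05 in the fit on group alone. With the replicate number as a block 21 of 182 hosts had an unadjusted p under 0.05 by edgeR, beside 1859 of all 22007 genes (8.45%). The count thus rose over all genes and not in the hosts alone. GOLGA8A had 90.1 and 95.9 CPM in WT, 105 and 123 in P95H and 121 in the P95H library labelled uninduced, a log2 change of 0.31 ± 0.11 (SE, unadjusted p 0.0352, edgeR adjusted p 1), with 0.23 and 0.37 within the numbers 1 and 2. GOLGA8B had 29.98 and 27.79 CPM in WT, 33.2 and 39.4 in P95H and 41.4 uninduced, a log2 change of 0.34 ± 0.13 (unadjusted p 0.0389, edgeR adjusted p 1), with 0.15 and 0.52 within numbers. Both were thus as high in P95H cells without doxycycline as with it. With the block their edgeR adjusted p was 0.0744 and 0.129. The genes are near-identical copies, and the sources used here do not say how reads were shared between them. Their member windows at 1.73 ± 1.36 CPM in P95H, from 0.23 ± 0.20 in GOLGA8A and 0.24 ± 0.19 in GOLGA8B, were higher in P95H, and a further GOLGA8A window was lower.

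A further 5 host genes were chosen after their RNA values were seen. CYSLTR1, the host with the largest RNA rise, had 0.285 and 0.025 CPM in WT and 0.404 and 0.181 in P95H, a log2 change of 0.86 ± 0.95. ANP32BP1, with the largest fall, had 1.76 and 1.20 CPM in WT and 0.908 and 1.04 in P95H, a log2 change of -0.59 ± 0.35. HLA-L had 2.52 and 2.72 CPM in WT against 3.94 and 3.57 in P95H (0.53 ± 0.24), UBE2V1 6.37 and 5.64 against 7.74 and 8.47 (0.45 ± 0.19), and ZC3H4 220 and 251 against 196 and 212 (-0.19 ± 0.11). In ANP32BP1, HLA-L, UBE2V1 and ZC3H4 the libraries of the 2 lines did not overlap, and in each the edgeR adjusted p was 1. ZC3H4 at 253 CPM and UBE2V1 at 5.96 CPM in the uninduced library lay with WT, while ANP32BP1 at 0.878 and HLA-L at 3.43 lay nearer to P95H.

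**Figure D5:**
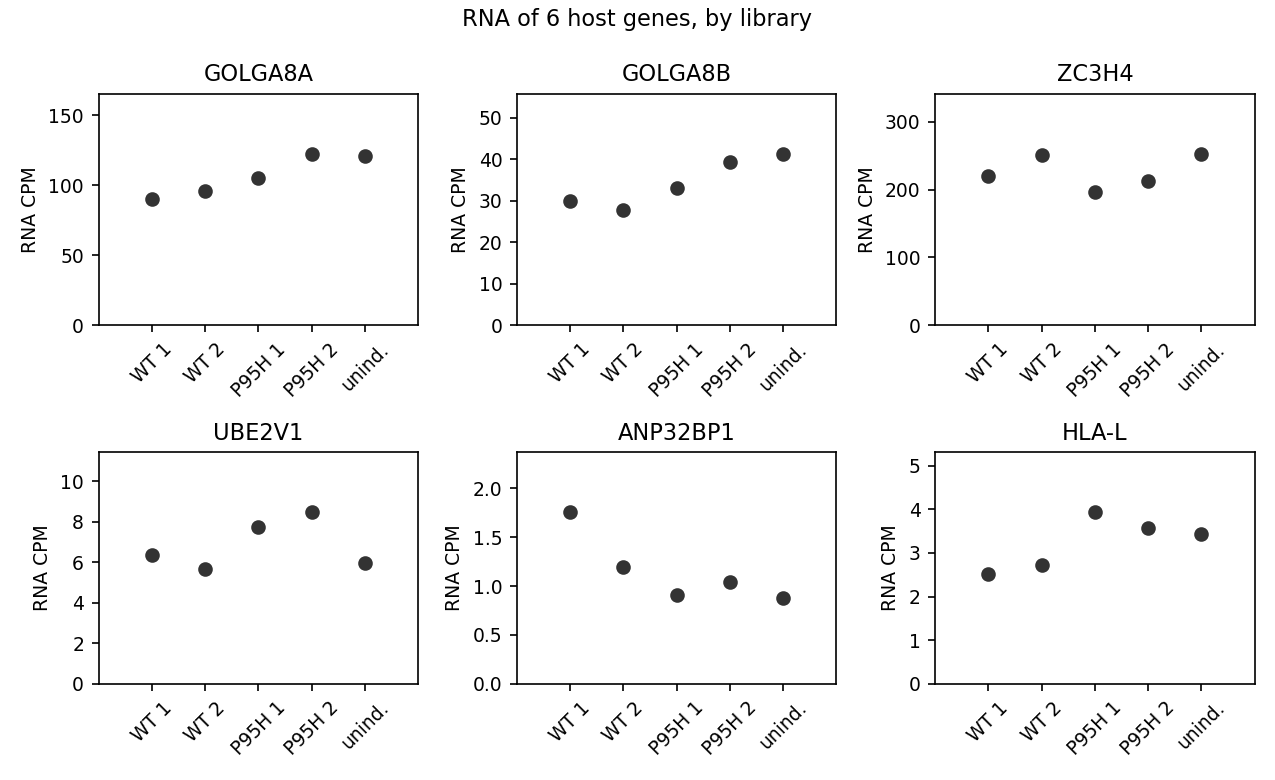
RNA CPM (y axis, from 0) in each of the 5 libraries (x axis: WT 1 and 2, P95H 1 and 2, and the P95H library labelled uninduced) for 6 host genes, 1 point per library. GOLGA8A and GOLGA8B are lower in both WT libraries than in the other 3, the uninduced one included.

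Binding was also listed in hosts without RNA counts. GOLGA8DP, RP11-111F5.5, RP11-78J21.7, SPP2 and WASH6P had 0 counts in all 5 libraries, and together they held 10 member windows. WASH6P had 13.52 ± 6.62 CPM in WT and 4.95 ± 3.82 in P95H at its strongest window, GOLGA8DP 1.80 ± 1.36 against 0.31 ± 0.18, and RP11-111F5.5 2.36 ± 2.28 against 0.02 ± 0.02. For RP11-111F5.5, 2 windows repeat the values of RP11-111F5.4. In these hosts binding and RNA cannot be set against each other, and the sources used here do not say whether the counting left out reads with several matches.

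SRSF2 itself, whose count includes endogenous and introduced transcripts as far as reads match, had 221 and 243 CPM in WT, 222 and 253 in P95H and 284 in the uninduced library, which does not check the labels. Of 12 erythroid and megakaryocyte markers, 11 had at least 1 CPM in all 5 libraries, all but the platelet factor PF4, and of 14 markers of other cells, 13 stayed below 1 CPM in all 5. The exception was PECAM1, an endothelial marker that megakaryocytes and platelets also carry. None of these markers hosted a member window, nor did any listed translation factor, chaperone or small nucleolar RNA host gene.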

How the data were processed

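The members, gene lists and tests were chosen with earlier results of these data known. Binding values are the authors': per the file headers, the deposited table holds, for each window, the log2 change (P95H over WT), an adjusted p-value (FDR), and mean CPM with its standard error per protein. The sources used here do not give the total behind CPM, the adjustment or the annotation release. No test of binding was made from means. The RNA-seq file deposited by the authors holds raw counts per gene. Build GRCh38.p3 and the tools TopHat2 2.0.14, STAR 2.5.3a and edgeR are named, without roles, in the submitters' processing notes.

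The table had 8324 entries; 224 were repeats of a position, which the first entry then represented. Counts of WT and P95H (2 against 2) were tested in R 4.3.3 with edgeR 4.0.16 (filterByExpr, TMM factors, quasi-likelihood test on group, two-sided, Benjamini-Hochberg adjusted p under 0.05 over all genes), with DESeq2 1.42.0 as an alternative. The library labelled uninduced was given as CPM only. P-values measure the spread between these samples. The SE of an edgeR log2 change was derived as its absolute size over the square root of the F statistic of the test. It is therefore approximate. CPM are counts scaled to the TMM-adjusted library total, with factors of 0.951 to 1.04 taken over all 5 libraries before any filter. A single count was worth 0.0222 to 0.0267 CPM of the raw total. The script was tested on simulated data. Sequences came from RefSeq promoter entries (GRCh38.p14), by coordinates on the same primary assembly, and no sequence was read for other windows. Windows were handled in Python 3.11.15 with pandas 2.3.3 and drawn with matplotlib 3.10.9.

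Named genes were those with the 8 highest mean CPM and the 8 largest changes (at least 1 CPM) in each direction, the 6 with most windows, the 5 with most windows among those with both directions, hosts past the RNA test, and up to 4 members of each list. Other genes named were chosen after their values were seen. Alternatives covered stricter p, every entry, merged regions, a minimum of 1 CPM, RNA scaling, filter, block and left-out libraries. A gene that this rule takes is not reported here.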

Additional observations from a re-analysis of the deposited data

How the results depend on the processing

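With an adjusted p of at most 0.001 the members numbered 174 lower and 42 higher, and as merged regions 171 were lower. Under the other alternatives both counts stayed within 1.5 times their values, with 261 to 371 lower and 64 to 95 higher. Those without PTMAP5, HMGB1P5 and ANP32A, without recurring values, without windows that rest on 1 sample for at least 90% (304 lower, 79 higher) and with any entry of the class (369 lower, 95 higher) were added after seeing the data. The median log2 change was -2.01 at an adjusted p of at most 0.01, -1.48 with 1 value per host gene and -1.52 without the 3 genes. No host gene passed the RNA test under any alternative run, whether with RLE size factors, no filter, a minimum count of 50, DESeq2 or each library left out (0 to 0). With the replicate block 0 hosts passed, while 84 genes of all passed against 0 without it. Same-numbered libraries deviated from their group means together (correlation 0.534), but with 2 pairs and no label on what the numbers mark this is a hint from the data. Without a filter 15 of all genes passed. The 7 RNA changes given with an error kept their sign in each fit that gave a value, and those of CYSLTR1 and ANP32BP1 had none at a minimum count of 50. With libraries left out in turn, that of CYSLTR1 ranged from 0.02 without WT replicate 2 to 3.41 without WT replicate 1, and that of ANP32BP1 from -0.85 to -0.28. With 10 bases added on either side, GGNG was present in 60.0% and CCNG in 66.7% of 15 member windows. Binding errors could not be recomputed without single samples.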
